A study of Mus musculus with 6 samples.

Results

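The core genes of the circadian clock were examined in naive mesenteric lymph nodes of 2 knockout genotypes. The 10 listed members were the activators Clock and Arntl, the repressors Per1, Per2, Per3, Cry1, Cry2, Nr1d1 and Nr1d2, and the output gene Dbp. They were chosen by name, and every non-control probe whose RefSeq accession mapped to one of them was kept. This gave 15 probes for 9 members, out of 41006 probes and 12254 genes named this way on the array. No probe here was named Cry2, so Cry2 was not analysed here.

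The TB_TNF_KO group held 3 arrays of adult mice of the strain labelled TB-TNF KO double, and the B_TNF_KO group held 3 arrays of adult mice of the strain labelled B-TNF KO. The series title names TNF derived from T cells and B cells. TNF is an inflammatory cytokine that also helps to organise lymphoid tissue. Each array carried RNA from the pooled nodes of 3 mice in the Cy3 channel and the same pool of mouse cell line RNA in the Cy5 channel. No wild-type node was analysed here, and the hour of collection, the lighting schedule and the promoter that drives each deletion are not given in the sources used here. TB_TNF_KO replicate 2 was labelled female and the other pools male.

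In the clock, CLOCK and ARNTL (also called BMAL1) form a dimer that binds E-box elements and switches on the Per, Cry, Nr1d and Dbp genes. PER and CRY proteins then block that dimer, and the NR1D1 and NR1D2 proteins (REV-ERB alpha and beta) repress Arntl through the RORE element. In many mouse tissues, lymph nodes among them, the mRNA of Arntl therefore peaks at a different time of day from that of Per, Nr1d and Dbp, and a shift in clock phase can move Arntl of the positive limb (Clock, Arntl) and genes of the negative limb (Per, Cry, Nr1d) in opposite directions.

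Letters of these elements were found in some of the promoters. The windows below, from RefSeq on GRCm38.p6, are 300 bases long, span a transcript start and are shown because each holds the letters of an element named above or of the D-box. Capitals mark the element: a RORE in Arntl, an E-box (CACGTG) followed by a D-box (TTATGCAA, the site of DBP-type factors) in Per1, and the variant E-box (CACGTT, here on the opposite strand) followed by an E-box in Cry1.
Arntl, chr7:113207261-113207560, plus strand: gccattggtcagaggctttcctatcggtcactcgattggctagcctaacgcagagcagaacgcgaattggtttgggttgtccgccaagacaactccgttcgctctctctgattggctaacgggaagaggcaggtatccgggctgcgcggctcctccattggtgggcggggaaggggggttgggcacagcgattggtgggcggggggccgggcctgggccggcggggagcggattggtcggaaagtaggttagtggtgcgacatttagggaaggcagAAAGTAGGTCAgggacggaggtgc
Per1, chr11:69098699-69098998, plus strand: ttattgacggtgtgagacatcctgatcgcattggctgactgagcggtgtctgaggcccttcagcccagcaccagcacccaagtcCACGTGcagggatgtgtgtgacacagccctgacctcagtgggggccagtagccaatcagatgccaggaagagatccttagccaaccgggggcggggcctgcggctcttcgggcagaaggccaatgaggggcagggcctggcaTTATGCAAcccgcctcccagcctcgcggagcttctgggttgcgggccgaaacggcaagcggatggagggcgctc
Cry1, chr10:85185005-85185304, minus strand: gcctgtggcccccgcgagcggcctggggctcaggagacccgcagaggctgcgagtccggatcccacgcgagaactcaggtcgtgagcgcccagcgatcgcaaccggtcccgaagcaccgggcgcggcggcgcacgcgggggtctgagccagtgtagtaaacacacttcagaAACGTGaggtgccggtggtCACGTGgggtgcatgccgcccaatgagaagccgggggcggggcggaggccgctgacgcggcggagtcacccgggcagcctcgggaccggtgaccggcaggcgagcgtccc

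Motifs were searched as letters on both strands. The 9 members with an entry had 13 windows. CACGTG was found in 2 of the 13 (Per1 and Cry1), against 7.15% of all 32851 windows, and CACGTT in 3 (Cry1, Cry2 and Nr1d1), against 4.68%. No stretch can match both forms. TTATGTAA or TTATGCAA was found in 2 (Per1 and Per3), against 1.66% of windows, and the RORE in 1 (Arntl), against 0.384%. A match describes the letters of the window only, and Per2 had no entry in the table.

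The arrays themselves set the limits of the comparison. Median net intensity per array, spot minus local background, was 143.6 to 166.5 in TB_TNF_KO and 158.8 to 203.4 in B_TNF_KO in the node channel, and 315.5 to 362.1 in TB_TNF_KO and 280.3 to 283 in B_TNF_KO in the reference channel. TB_TNF_KO arrays 1 and 2 were the most alike of all pairs: their node channels differed with an SD of 0.17 on the log2 scale, 0.95 times the SD between their Cy5 signals. In the remaining 14 pairs that ratio was 1.06 to 1.59. They were counted as 1 sample, so n was 2 TB_TNF_KO samples and 3 B_TNF_KO samples. The Y-linked gene Eif2s3y was at -2.81 and -2.84 on these 2 arrays, although array 1 was labelled male, and at 1.49 on TB_TNF_KO array 3, against 0.59 to 1.83 in B_TNF_KO (log2 ratio of node over reference). Median log2 ratios of 5 measured exocrine pancreas genes of 10 listed were 4.83, 4.79 and 0.10 in TB_TNF_KO and 2.86, 4.52 and 0.10 in B_TNF_KO, so replicate 3 of both groups stood apart. The 5 adipocyte genes had medians of 4.36 to 4.78 in TB_TNF_KO and 4.60 to 4.87 in B_TNF_KO. The 5 B cell and the 5 T cell genes, which define the labelled tissue, had median log2 ratios of at least 2.10 and 2.90 on every array, with Cd79a (0.54 to 1.19) and Cd3e (0.99 to 1.31) the nearest to the reference in their lists. Summed net node intensity of the B cell genes was 19064 to 31103 in TB_TNF_KO and 29440 to 38413 in B_TNF_KO, and that of the T cell genes 17818 to 24329 in TB_TNF_KO and 25445 to 34388 in B_TNF_KO. These sums were not scaled between arrays, whose median node intensities also differed, as given above. In log2 ratio, the median difference (TB_TNF_KO minus B_TNF_KO) was -0.10 over the 5 B cell genes, with a range of -0.51 to 0.05. Over the 5 T cell genes it was -0.09, with a range of -0.22 to 0.03. Of the stromal markers, Cxcl13 (-1.56, SE 0.09, limma adjusted p = 0.022) and Lyve1 (-1.22, SE 0.05, limma adjusted p = 0.0094) were lower in TB_TNF_KO. They were the 2 that passed among 4 follicular dendritic cell, 4 blood endothelial and 4 lymphatic endothelial genes measured. Of these, 4, 4 and 3 were lower by sign, where 54.9% of all probes were. For Lyve1 the node channel alone differed by -0.41 and the reference channel by 0.54, and for Cxcl13 by -1.94 and -0.75. The part of cell make-up in the clock values was not tested. The images of the 2 groups were extracted on 2 different days, so day and genotype cannot be told apart. In pooled nodes, fewer cells of a type and less RNA per cell cannot be told apart. Tnf, the targeted gene, was at -0.66, -0.63 and -0.83 in TB_TNF_KO, against 0.19, 0.36 and 0.49 in B_TNF_KO, with no overlap (difference -1.09, SE 0.10, limma adjusted p = 0.055). Whether its probe lies in the deleted part is not given in the sources used here.

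No clock probe passed the test. With limma across 40791 probes and a Benjamini-Hochberg adjusted p under 0.05, 0 of 15 clock probes were higher (background 0%) and 0 were lower (background 0.0147%, 6 probes) in TB_TNF_KO. The 95% interval that reached farthest from 0, that of Nr1d2, ended at a 1.46-fold lower level in TB_TNF_KO. At an unadjusted p under 0.05, 2 of 15 clock probes were lower, the brightest probes of Nr1d2 and Per2, and 0 were higher. The background was 11.1% of all probes lower and 5.04% higher, so the clock share was near it. Without replicate 3 of both groups, 1 of 15 was lower (background 6.93%) and 0 were higher (background 2.35%). That fit kept 1 TB_TNF_KO sample, since TB_TNF_KO arrays 1 and 2 count as 1, so no conclusion is drawn from its counts. With the 6 arrays counted separately, 0 of 15 clock probes passed the adjusted test (background 1.46% higher and 4.55% lower). In the node channel alone 0 of 15 also passed it (background 0.473% higher and 0.517% lower). With the replicate number as a block, and TB_TNF_KO arrays 1 and 2 counted as 2 samples, 2 passed as lower (background 6.2%) and 0 as higher (background 1.82%). The pairing behind that block came from the data and not from the labels. On 4 clock probes, the brightest of Arntl, Per2, Nr1d2 and Dbp, all 3 TB_TNF_KO arrays were under all 3 B_TNF_KO arrays, where 17% of all probes did so. On none did all lie above, where 10.6% of all probes did. Within same-numbered pairs of arrays, 7 of 15 clock probes were lower in TB_TNF_KO in all 3 pairs (27.5% of all probes) and 0 higher in all 3 (19.1%). TB_TNF_KO arrays 1 and 2, counted as 1 sample in the main test, gave 2 of these 3 pairs. The arrays numbered 1 deviated together only weakly (r across probes 0.13). Here and below, a difference is TB_TNF_KO minus B_TNF_KO in the log2 ratio of node over reference, with the SE of the fit.

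**Figure D1:**
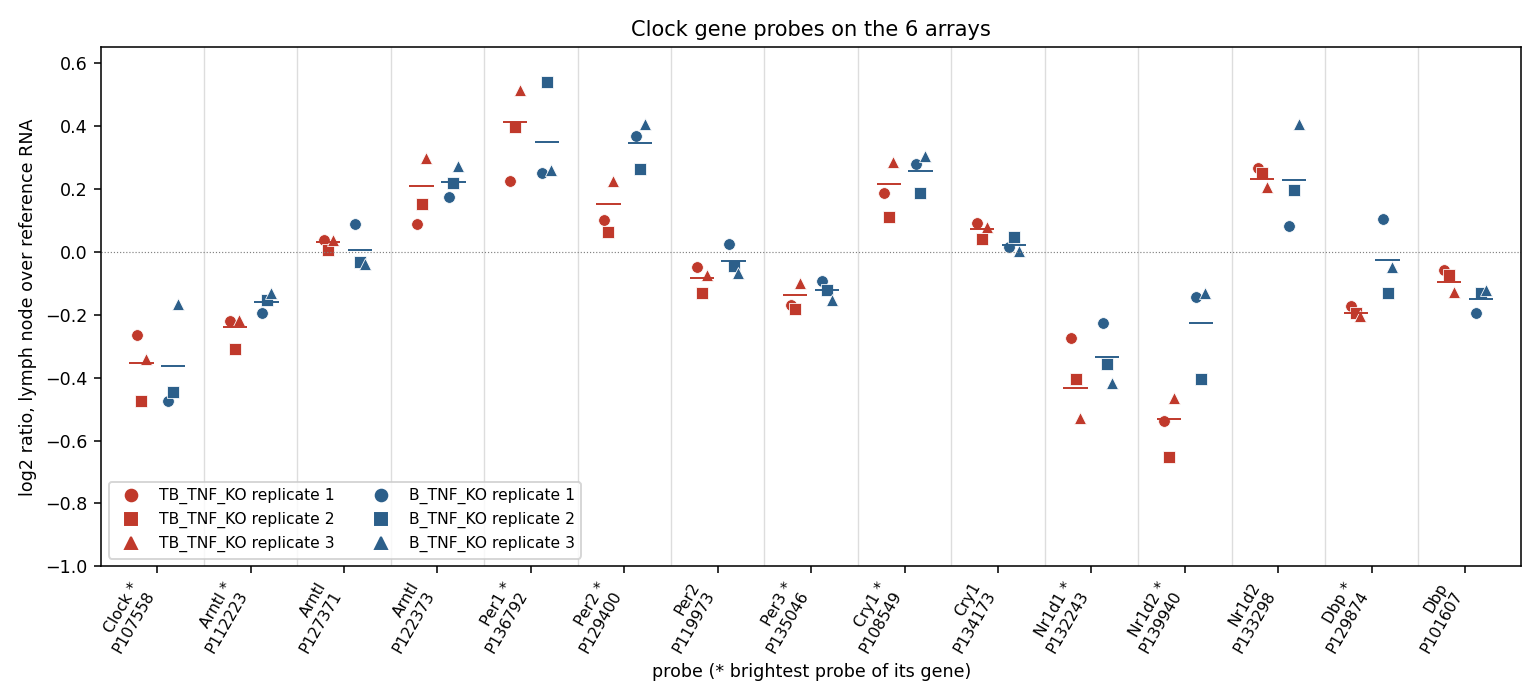
Log2 ratio of lymph node over reference RNA for each of the 15 clock gene probes, with TB_TNF_KO arrays in red on the left and B_TNF_KO arrays in blue on the right of each column; marker shape gives the replicate, lines are group means with TB_TNF_KO arrays 1 and 2 counted as 1 sample, and asterisks mark the brightest probe of a gene. The 3 red points lie below the 3 blue ones for 4 asterisked probes, those of Arntl, Per2, Nr1d2 and Dbp, and overlap them for the other 11 probes.

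In the positive limb, neither gene passed the test. Clock encodes the DNA-binding partner of ARNTL that also acetylates histones. Its single probe had log2 ratios of -0.26, -0.48 and -0.34 in TB_TNF_KO, against -0.47, -0.45 and -0.17 in B_TNF_KO. The groups overlapped fully, and the means were -0.35 ± 0.02 (SD, n = 2) in TB_TNF_KO and -0.36 ± 0.17 (SD, n = 3) in B_TNF_KO. The difference was 0.007 (SE 0.10, 95% interval -0.23 to 0.25, limma adjusted p = 0.98). The Clock probe was dim, with a median net node intensity of 73.8 (48.8 to 116.2 on the 6 arrays).

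Arntl, whose loss alone stops the mouse clock, was read by 3 probes. They are shown because they read 1 gene with different letters; capitals mark G and C.
Arntl A_66_P112223 (brightest, 35% GC): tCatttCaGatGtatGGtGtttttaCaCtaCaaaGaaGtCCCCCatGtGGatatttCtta
Arntl A_66_P127371 (43.3% GC): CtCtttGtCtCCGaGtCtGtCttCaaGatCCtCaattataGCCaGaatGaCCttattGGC
Arntl A_66_P122373 (38.3% GC): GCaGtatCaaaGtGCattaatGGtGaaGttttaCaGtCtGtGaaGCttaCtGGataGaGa

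The brightest Arntl probe had log2 ratios of -0.22, -0.31 and -0.22 in TB_TNF_KO, against -0.20, -0.15 and -0.13 in B_TNF_KO. The groups did not overlap, but TB_TNF_KO arrays 1 and 3 lay just under B_TNF_KO array 1. The difference was -0.08 (SE 0.05, 95% interval -0.19 to 0.03, limma adjusted p = 0.46), and -0.02 after correction for probe GC content. The other two Arntl probes differed by 0.02 (SE 0.06) and -0.01 (SE 0.07), with overlapping groups. All 3 intervals included 0 and none reached beyond -0.19 or 0.16.

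In the negative limb, the farthest difference from 0 among the 15 clock probes was that of Nr1d2, on 1 of its 2 probes. The probes of Nr1d2, Per2 and Dbp are shown because in each of these genes the brightest probe was lower without overlap while the second was not; capitals again mark G and C.
Nr1d2 A_66_P139940 (brightest, 35% GC): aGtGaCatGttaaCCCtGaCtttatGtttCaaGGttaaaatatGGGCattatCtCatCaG
Nr1d2 A_66_P133298 (48.3% GC): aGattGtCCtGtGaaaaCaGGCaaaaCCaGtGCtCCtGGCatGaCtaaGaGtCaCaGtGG
Per2 A_66_P129400 (brightest, 45% GC): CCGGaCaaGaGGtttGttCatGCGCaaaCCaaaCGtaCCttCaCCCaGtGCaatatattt
Per2 A_66_P119973 (48.3% GC): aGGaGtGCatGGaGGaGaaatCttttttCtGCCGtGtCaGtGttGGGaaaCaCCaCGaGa
Dbp A_66_P129874 (brightest, 55% GC): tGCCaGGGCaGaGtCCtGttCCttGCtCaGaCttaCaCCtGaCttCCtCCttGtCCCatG
Dbp A_66_P101607 (70% GC): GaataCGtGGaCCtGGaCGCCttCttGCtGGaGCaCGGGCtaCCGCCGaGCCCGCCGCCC

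Nr1d2 encodes REV-ERB beta, a nuclear receptor that represses Arntl. Its brightest probe had log2 ratios of -0.54, -0.65 and -0.47 in TB_TNF_KO, against -0.14, -0.40 and -0.13 in B_TNF_KO. B_TNF_KO array 2 lay close to the TB_TNF_KO arrays and the other two B_TNF_KO arrays well above them. The means were -0.53 ± 0.09 (SD, n = 2) in TB_TNF_KO and -0.23 ± 0.15 (SD, n = 3) in B_TNF_KO. The difference was -0.31 (SE 0.10, 95% interval -0.54 to -0.07), 1.24-fold lower in TB_TNF_KO, with an unadjusted p of 0.019 and a limma adjusted p = 0.20. With the replicate number as a block and the 6 arrays counted separately it passed, at -0.33 (limma adjusted p = 0.020). That fit counts TB_TNF_KO arrays 1 and 2 as 2 samples. The second Nr1d2 probe had 0.27, 0.25 and 0.21 in TB_TNF_KO, against 0.08, 0.20 and 0.41 in B_TNF_KO, and differed by 0.004 (SE 0.10, limma adjusted p = 0.99). That probe was dim, with a median net node intensity of 76.5, against 512 for the brightest one.

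Per2 encodes a repressor at the centre of the loop. Its brightest probe had log2 ratios of 0.10, 0.06 and 0.23 in TB_TNF_KO, against 0.37, 0.26 and 0.40 in B_TNF_KO. The groups did not overlap, with TB_TNF_KO array 3 just under B_TNF_KO array 2. The means were 0.15 ± 0.10 (SD, n = 2) in TB_TNF_KO and 0.35 ± 0.07 (SD, n = 3) in B_TNF_KO. The difference was -0.19 (SE 0.07, 95% interval -0.36 to -0.03), with an unadjusted p of 0.028 and a limma adjusted p = 0.24. The replicate block with 6 separate arrays gave -0.22 and a limma adjusted p = 0.038, which passed. TB_TNF_KO arrays 1 and 2 again entered that fit as 2 samples. The second Per2 probe, with a median net node intensity of only 55, differed by -0.05 (SE 0.05), with overlapping groups.

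Per1 encodes the PER protein whose gene light and glucocorticoids induce directly in mice. Its probe had log2 ratios of 0.23, 0.40 and 0.52 in TB_TNF_KO, against 0.25, 0.54 and 0.26 in B_TNF_KO. Arrays of each group spanned nearly the same range, and the difference was 0.06 (SE 0.11, 95% interval -0.20 to 0.33, limma adjusted p = 0.84). Per3, a Per family member that the core loop can do without, was at -0.18 to -0.10 in TB_TNF_KO and -0.15 to -0.09 in B_TNF_KO, a difference of -0.02 (SE 0.05). Its net node intensity was 26.2 to 38.4 on the 6 arrays, under the offset of 50 that the background correction added, and that offset draws ratios of such dim spots towards 0.

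Cry1 encodes the strongest repressor of the CLOCK and ARNTL dimer. Its brightest probe was at 0.19, 0.11 and 0.28 in TB_TNF_KO, against 0.28, 0.19 and 0.30 in B_TNF_KO, and its second at 0.09, 0.04 and 0.08 in TB_TNF_KO, against 0.02, 0.05 and 0.00 in B_TNF_KO. The groups overlapped on both, and the differences were -0.04 (SE 0.06) and 0.05 (SE 0.04). Within same-numbered pairs the brightest Cry1 probe differed by -0.09, -0.08 and -0.02, and the block gave a limma adjusted p = 0.40. Nr1d1, encoding REV-ERB alpha, was at -0.27, -0.40 and -0.53 in TB_TNF_KO, against -0.23, -0.36 and -0.42 in B_TNF_KO. The groups overlapped, though within same-numbered pairs Nr1d1 differed by -0.05, -0.05 and -0.11 (limma adjusted p = 0.36 with the block). The difference was -0.10 (SE 0.08, 95% interval -0.30 to 0.10, limma adjusted p = 0.63) on a probe with a median net node intensity of 53.3.

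Dbp encodes an output transcription factor that the CLOCK and ARNTL dimer drives directly. Its brightest probe had log2 ratios of -0.17, -0.19 and -0.20 in TB_TNF_KO, against 0.10, -0.13 and -0.05 in B_TNF_KO. The TB_TNF_KO arrays were nearly equal and lay just under B_TNF_KO array 2, while B_TNF_KO array 1 was the highest. The difference was -0.17 (SE 0.07, 95% interval -0.35 to 0.01), with an unadjusted p of 0.065 and a limma adjusted p = 0.35. The second Dbp probe was at -0.06, -0.07 and -0.13 in TB_TNF_KO, against -0.19, -0.13 and -0.12 in B_TNF_KO, and differed by 0.05 (SE 0.05).

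The medians of the positive and the negative limb lay on the same side of 0, but on opposite sides after correction for probe GC content (0.02 in the positive and -0.05 in the negative limb), and no gene of either passed the test. On the brightest probe of each gene, 5 of 6 measured negative limb genes, 1 of 2 positive limb genes and Dbp had lower values in TB_TNF_KO, where 54.9% of all probes did. After correction for probe GC content Per3 (0.04) and Cry1 (0.02) moved above 0, while Per2, Nr1d1, Nr1d2, Arntl and Dbp stayed below it. Over all 15 clock probes 9 were lower, with a median of -0.02, near the values for the whole array, and second probes of Arntl, Cry1, Nr1d2 and Dbp were above 0. The median difference was -0.07 in the negative limb and -0.04 in the positive limb, beside -0.01 over all probes. Arntl mRNA runs out of phase with the Per, Nr1d and Dbp mRNAs in mouse tissues. Its brightest probe was on the same side of 0 as those of Per2, Nr1d2 and Dbp, with an interval that included 0. The other Arntl probes were at 0.02 and -0.01, and at 0.04 and 0.02 after correction for probe GC content. The side of Arntl was thus not settled, and clock phase was not tested. The limb medians were no firmer than the arrays allowed: without B_TNF_KO replicate 3 the positive limb median was 0.02, and without TB_TNF_KO replicate 2 it was 0.0011.

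The brightest Nr1d2 and Per2 probes were both highest on B_TNF_KO arrays 3 and 1 and lowest on TB_TNF_KO array 2, at 0.26 and 0.17 above, and -0.26 and -0.18 below, their 6-array means. Arntl was also highest on B_TNF_KO array 3 (0.07 above its mean) and lowest on TB_TNF_KO array 2 (-0.10), the same arrays as for Per2 and Nr1d2. Clock (0.20 and -0.11) and Cry1 (0.08 and -0.12) had the same highest and lowest arrays. These probes share arrays and reference channel, and no correlation was tested. How many of all probes have the same highest and lowest arrays was not computed. Dbp was highest on B_TNF_KO array 1 (0.21), and Nr1d1 too (0.14). Per1 stood apart, with its highest values on B_TNF_KO array 2 (0.18) and TB_TNF_KO array 3 (0.15). The range over the 6 arrays was 0.09 to 0.52 for the 15 clock probes, with a median of 0.21, beside a median of 0.20 over all probes.

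**Figure D2:**
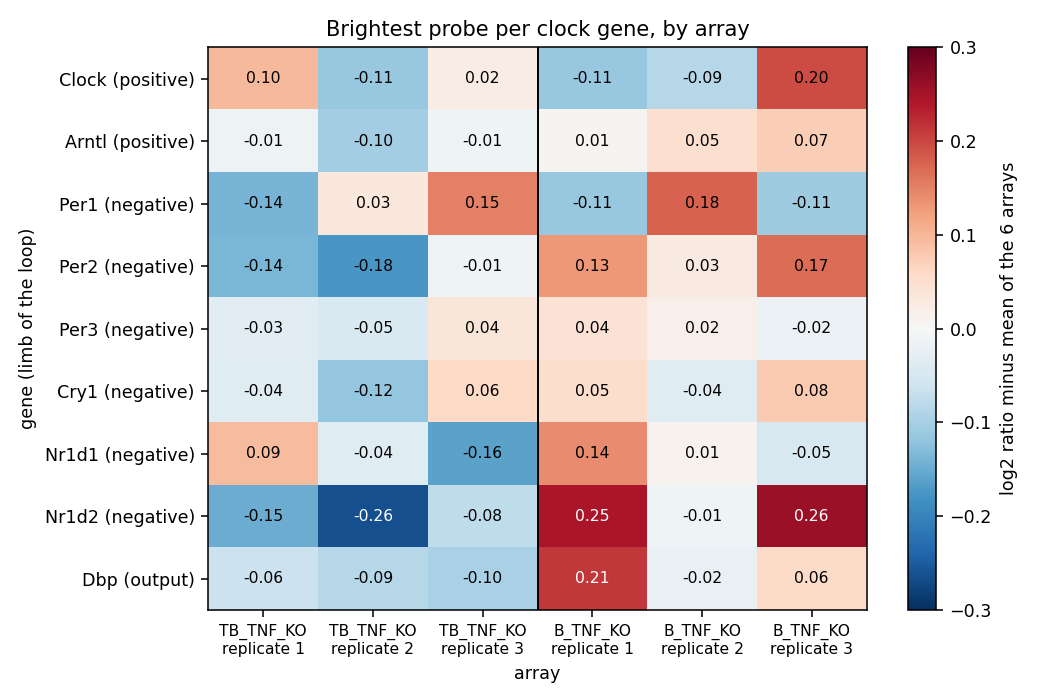
Log2 ratio minus the mean of the 6 arrays, for the brightest probe of each of 9 clock genes (rows, with the limb in brackets) on each array (columns, TB_TNF_KO left of the line and B_TNF_KO right of it). Nr1d2 spans the widest range, -0.26 to 0.26, and the Arntl row is negative on the TB_TNF_KO side, as are the Per2, Nr1d2 and Dbp rows.

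Each channel was also taken alone. The reference RNA was the same on every array. Its channel still differed between the groups for Cxcl13 (-0.75) and Lyve1 (0.54), whose node channels also differed. The cause of such shifts was not tested. Of the 15 clock probes 11 had the same sign in both channels, and the share over all probes was not computed. For Cry1 the node channel alone differed by -0.18 and 0.22 on its 2 probes and the reference channel by -0.19 and 0.17. On both probes the groups did not overlap in either channel, though the log2 ratios overlapped. For the brightest Nr1d2 probe the node channel alone differed by -0.39 (limma adjusted p = 0.15) and the reference channel by -0.13. For Per2 these were -0.12 and -0.0026, and for Dbp -0.07 and 0.06. In the node channel alone 2 of 15 clock probes did not overlap upward (background 15.1%) and 2 downward (background 17.5%), and in the reference channel 2 (background 11.5%) and 4 (background 19.4%).

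**Figure D3:**
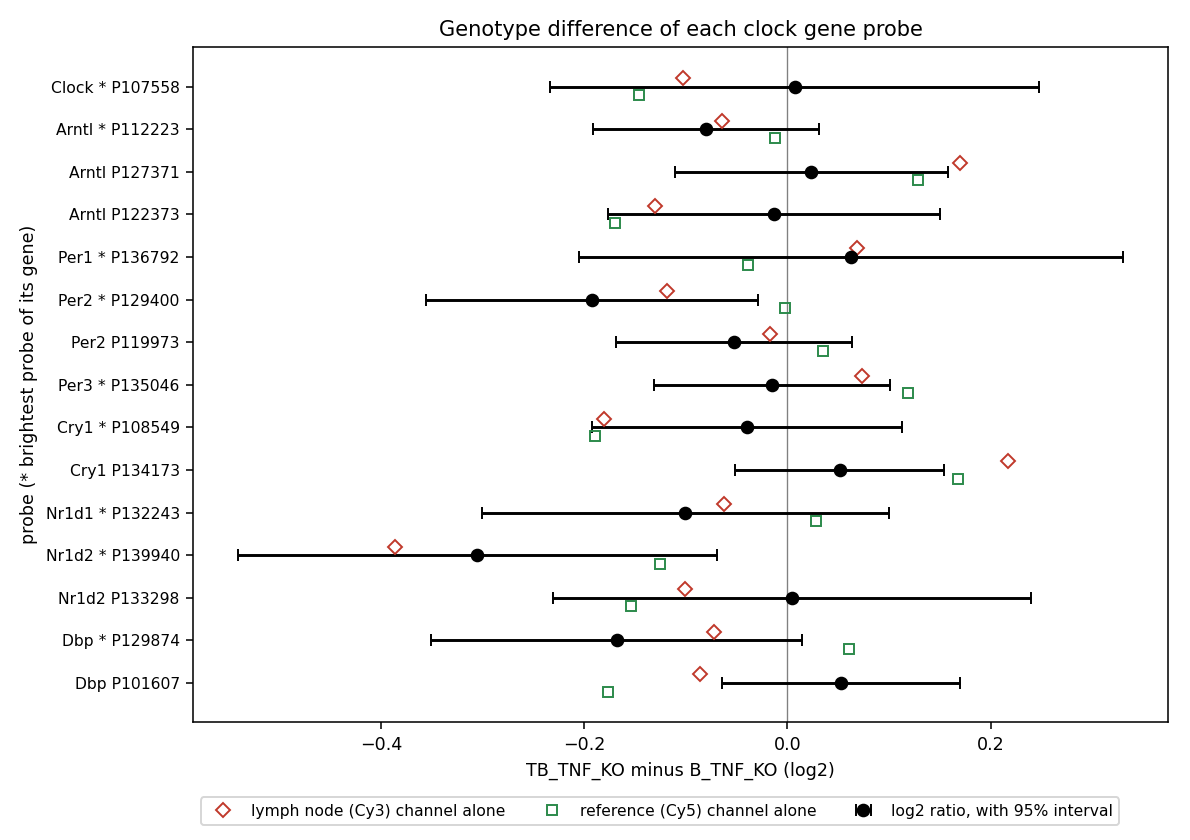
TB_TNF_KO minus B_TNF_KO difference on the log2 scale for each of the 15 clock gene probes: filled circles with bars are the log2 ratio with its 95% interval, open diamonds the node channel alone and open squares the reference channel alone. The intervals of the brightest Nr1d2 and Per2 probes exclude 0, and for Cry1 diamond and square lie together on either side of 0.

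Differences over the whole array followed the GC content of the probe, with a median of -0.06 at up to 35% GC and 0.02 above 55% GC. Read within probes of like GC content, 9 of 15 clock probes lay inside the middle 50% of their bin, 5 below it and 1, Per1, above it. The 5 were the brightest probes of Dbp, Per2 and Nr1d2, the Nr1d1 probe and the dim Per2 probe. Of the probes in the same bin, 3.73% were lower than Dbp, 6.64% lower than Per2, 8.19% lower than Nr1d2 and 9.72% lower than Nr1d1. After a correction for GC content within each array the differences were -0.18 for Dbp, -0.19 for Per2, -0.25 for Nr1d2 and -0.11 for Nr1d1, and 2 of 15 clock probes had an unadjusted p under 0.05, both lower (background 8.86% lower and 6.91% higher).

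**Figure D4:**
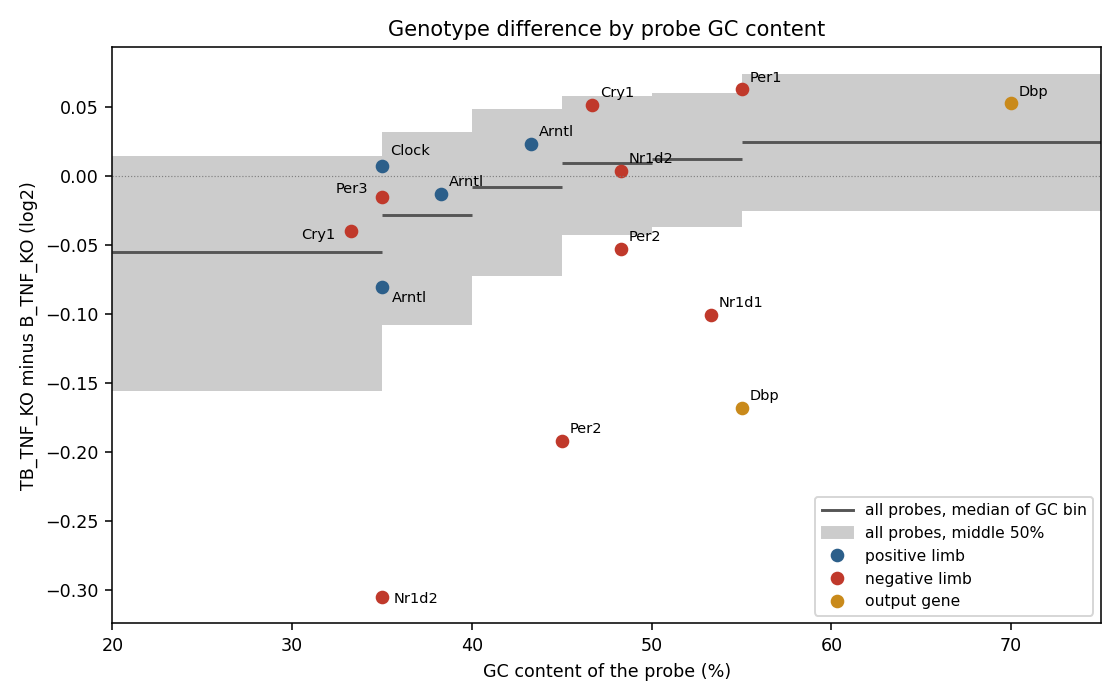
TB_TNF_KO minus B_TNF_KO difference in log2 ratio against the GC content of the probe, with the median (dark line) and middle 50% (grey) of all probes in each GC bin and the 15 clock gene probes as points coloured by limb. The brightest probes of Nr1d2, Per2 and Dbp and the Nr1d1 probe lie below the grey band of their bin, and the positive limb probes lie inside it.

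Replicate 3 of both groups, the arrays with the lowest pancreas signal, was also left out, which kept 1 TB_TNF_KO sample. The differences on the brightest probes were then -0.32 for Nr1d2, -0.23 for Per2, -0.17 for Dbp and -0.09 for Arntl. Between the replicate 3 arrays alone, a single pair with no test, they were -0.34, -0.18, -0.16 and -0.09 in the same order of genes. Per1 was at -0.09 in the first and 0.26 in the second, and Clock at 0.09 and -0.17. Leaving out TB_TNF_KO arrays 1 and 2, the arrays without Y-linked signal, also kept 1 TB_TNF_KO sample. Nr1d2 then differed by -0.24, Per2 by -0.12, Dbp by -0.18 and Nr1d1 by -0.20.

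Other genes of the clock were read from a list of 20, of which 12 were measured. None passed the test in either direction (limma), with 3 lower and 0 higher at an unadjusted p under 0.05 (11.1% and 5.04% of all probes), and 9 lower and 3 higher by sign (54.9% and 45.1% of all probes). Bhlhe40 (DEC1), an E-box repressor, was at -1.27, -1.30 and -1.38 in TB_TNF_KO, against -0.999, -1.15 and -1.05 in B_TNF_KO, with no overlap. Bhlhe40 differed by -0.26 (SE 0.06, limma adjusted p = 0.12). Tef, a relative of Dbp that binds the D-box, was at 0.39, 0.24 and 0.35 in TB_TNF_KO, against 0.44, 0.50 and 0.61 in B_TNF_KO, and differed by -0.18 (SE 0.06, limma adjusted p = 0.22). Fbxw11, a subunit of an E3 ligase that marks PER proteins for breakdown, differed by -0.29 (SE 0.05, limma adjusted p = 0.085). Its B_TNF_KO array 1 spot was an outlier and was dropped, and its value rests on 5 arrays.

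Of the genes beside the core, Arntl2, a relative of Arntl, differed by 0.08 (SE 0.06). Nfil3, a repressor at the D-box, differed by 0.05 (SE 0.09) and Bhlhe41, a close relative of Bhlhe40, by -0.01 (SE 0.04). Timeless, a replication fork protein also tied to the clock, differed by -0.10 (SE 0.09). Npas2, Rora and Hlf had no named probe that passed the filter here.

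Among clock-controlled genes, 7 of 10 were measured and 0 passed the test (limma). At an unadjusted p under 0.05, 1 was lower (11.1% of all probes) and 0 were higher (5.04% of all probes). That gene, Pfkfb3, an activator of glycolysis, was at 2.21, 2.10 and 2.24 in TB_TNF_KO, against 2.66, 2.55 and 2.73 in B_TNF_KO. It differed by -0.45 (SE 0.07, limma adjusted p = 0.058) with no overlap. Wee1, a cell cycle kinase with E-boxes in its promoter, differed by -0.12 (SE 0.05, limma adjusted p = 0.33). Of 10 glucocorticoid-responsive genes 9 were measured and 8 had higher values in TB_TNF_KO (45.1% of all probes), with a median difference of 0.14 (-0.01 over all probes). None passed the test (limma), and 2 were higher at an unadjusted p under 0.05 (5.04% of all probes): Ddit4, an inhibitor of mTORC1, at 0.32 (SE 0.05, limma adjusted p = 0.061), and Cdkn1a, a cell cycle inhibitor, at 0.41 (SE 0.14, limma adjusted p = 0.24). The classical targets Fkbp5 and Tsc22d3, named after their values were seen, differed by 0.06 (SE 0.09) and 0.07 (SE 0.12). All 9 immediate early genes were measured and none passed (limma). At an unadjusted p under 0.05, 1 was higher (5.04% of all probes) and 2 were lower (11.1% of all probes). The higher one was Fos (0.23, SE 0.08, named after its value was seen), and the lower ones were Egr2 (-0.26, SE 0.07) and Egr1 (-0.21, SE 0.07). In the node channel alone Fos differed by -0.02, Egr2 by -0.23 and Egr1 by -0.28, so Fos was higher in the log2 ratio only. The part of these genes in the values of the clock probes was not tested.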

How the data were processed

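Gene expression was measured on 6 two-colour arrays, 3 per group, with the node RNA in Cy3 and the reference in Cy5, per the labels. The deposited scanner files hold spot and local background intensity of both channels and a log10 ratio of Cy5 over Cy3, made by the authors with Agilent Feature Extraction A.7.5.1, per the file headers. The deposited series table holds the authors' log10 values with column medians of 2.98 to 2.99. Across spots they had an r of 0.993 to 0.996 with that array's own log10 Cy3 signal, and their differences between arrays tracked those of the node over reference log ratio (r 0.838 to 0.95 over 15 array pairs), so higher means more node RNA. How they were scaled stays unknown, and the table was used only as an alternative.

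Intensities were corrected with normexp (offset 50) and loess within array in limma 3.58.1 (R 4.3.3), with control spots at weight 0, and log2 ratios turned to node over reference. After leaving out 228 outlier spots, a probe was kept if 3 or more arrays had its node channel well above background (40792 of 41006 probes), and 40791 could be fitted. All 15 clock probes were kept, were well above background in both channels on all 6 arrays and were never saturated. Names came from RefSeq accessions on GRCm38.p6 (15303 of 41034 spots). Groups were compared probe by probe with lmFit and eBayes and Benjamini-Hochberg adjustment. The number of arrays limits the precision, and nothing but the labels says that pools are separate animals.

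The members, lists and the averaging of TB_TNF_KO arrays 1 and 2 were chosen with earlier results of these data known. All members are named; of the other lists, up to 6 clock genes and up to 2 of each other list by smallest unadjusted p, and the clock genes with a set role; 1 gene that this rule names is not reported here. Same-numbered arrays of the groups deviated together for replicates 2 and 3 (r across probes 0.53 and 0.62) and only weakly for replicate 1 (0.13). The replicate numbers were taken as pairs, from the data and not from the labels. TB_TNF_KO arrays 1 and 2, counted as 1 sample in the main test, enter these pairs as 2. Plots used matplotlib 3.10.9 under Python 3.11.15.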

Additional observations from a re-analysis of the deposited data

How the results depend on the processing

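The arrays are few and 5 of 15 clock probes had a median net node intensity under 100, which limits small differences. The count of clock probes called was 0 throughout, except for 2 lower (Per2 and Nr1d2) with the replicate block on 6 separate arrays and with array weights on 6 separate arrays. The cause of the changes below was not tested. Over all probes (limma), 741 were higher and 2528 lower with the replicate block, 973 and 3079 with array weights, 596 and 1857 with 6 arrays counted separately, 151 and 412 with trend and robust eBayes, 193 and 211 in the node channel alone, and 1 and 9 without saturated probes. The 6 lower calls became 0 with no or plain background subtraction, the reference channel alone and the series table, and 1 with the deposited log ratio. They were 0 to 5 when replicates were left out in turn, TB_TNF_KO replicate 3 apart, since its loss leaves 1 TB_TNF_KO sample. The negative limb median was -0.0289 with no background subtraction, -0.1124 with plain subtraction, -0.0315 with median centring, -0.1138 with the deposited log ratio, -0.1137 with the series table, -0.0208 in the reference channel and -0.0461 after GC correction. It was -0.0965 to -0.0383 with replicates left out in turn. The positive limb median was -0.0836 in the node channel, -0.0792 in the reference channel and 0.0211 after GC correction, and -0.0743 to 0.0198 with replicates left out in turn. The alternatives chosen after seeing the data left 1 TB_TNF_KO sample each, so only their probe differences, above, and limb medians are read. No conclusion is drawn from the counts given above without replicate 3 of both groups. Leaving out replicate 3 of both groups gave a positive limb median of 0.0004. Leaving out TB_TNF_KO replicates 1 and 2 gave a negative limb median of -0.0491. The replicate block changed no call of a clock probe other than Per2 and Nr1d2.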
